A study of Homo sapiens with 6 samples.

Results

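The genes described here are 10 stress transcription factors and stress targets: ATF4, ATF5, DDIT3, CHAC1, TRIB3, XBP1, HSPA5, HERPUD1, DDIT4 and PPP1R15A. They were found by symbol, and all 10 were among the 28491 genes of the count table and among the 16260 genes that passed the filter on low counts. The set was partly chosen by measured values, since a lower level of ATF5 and a higher level of CHAC1 in RBM47-OE than in NC were known when it was drawn up. The comparison of RBM47-OE with NC is therefore given for these genes as a description, with standard errors and without p-values.

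The libraries came from HCT116 cells, a human colorectal carcinoma line, 48 h after lipofection. The 3 NC libraries were from cells given a control plasmid and the 3 RBM47-OE libraries from cells given a plasmid that carries RBM47, an RNA-binding protein, so both groups had been transfected. The labels name a pcDNA3.1 vector with a Flag tag and DMEM, whereas the study's methods name a pIRES-hrGFP-1a vector and McCoy's medium. No source used here says whether the replicates were separate cultures, so the p-values below measure only the spread between these libraries, which may be technical. Depth ranged from 26792409 to 35477983 counts per library. RBM47 was at 1.91 to 2.33 FPKM in NC and at 131.3, 130.4 and 127.0 FPKM in RBM47-OE replicates 1, 2 and 3. Of 9 colorectal epithelial markers, EPCAM, CDH1, KRT8 and KRT18 were well expressed, KRT20, VIL1, CDX1 and LGALS4 were all under 1 FPKM, and the summed level was 961 to 1040 FPKM in NC and 834 to 927 FPKM in RBM47-OE. KRT8 and KRT18 made up most of this sum and were called lower, whereas EPCAM was called higher (76.3 and 95.8 FPKM on average in NC and RBM47-OE) and CDH1 was higher in all RBM47-OE libraries without being called. CDX2 averaged 4.70 FPKM in NC and 4.22 FPKM in RBM47-OE, with a log2 fold change of -0.22, and was not called. The markers of immune, fibroblast and endothelial cells summed to between 1.63 and 2.20 FPKM in every library.

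Cells meet a load of unfolded protein in the endoplasmic reticulum (ER) with the unfolded protein response, which has a branch through the kinase PERK (EIF2AK3), one through the nuclease IRE1 (ERN1) and one through the membrane-bound factor ATF6. PERK phosphorylates the initiation factor eIF2, as do kinases that sense lack of amino acids, double-stranded RNA or lack of haem, and this integrated stress response lowers general translation while the mRNAs of ATF4 and ATF5 are translated better. ATF4 then switches on genes of amino acid supply and stress, among them DDIT3 (the transcription factor CHOP), CHAC1, TRIB3 and DDIT4. IRE1 splices the mRNA of XBP1, and the spliced form, together with ATF6, raises ER chaperones such as HSPA5 (BiP). Gene-level counts show neither the translation of ATF4 and ATF5 nor the splicing of XBP1. In bulk RNA, fewer cells that express a gene and less RNA per cell cannot be told apart.

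Promoters were searched for elements through which these branches are known to act, and 30 bases around each match are shown so that the matched letters can be read. Matches were found in 4 of the 10 genes, and HERPUD1 held elements of both the ER chaperone and the ATF4 arm. The windows run from 250 bases before to 50 after the RefSeq start of each gene (GRCh38.p14), and all 10 genes had one. Motifs were searched on both strands, and capitals mark the fixed bases of each match. The ER stress element (ERSE), CCAAT and CCACG with 9 bases between them, was found in HSPA5 and XBP1 and in 0.0769% of 35116 promoters.
HSPA5 ERSE, chr9:125241385-125241414, minus strand: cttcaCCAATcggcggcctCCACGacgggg
XBP1 ERSE, chr22:28800597-28800626, minus strand: gctggCCAATcgcggagggCCACGaccgta
The shorter ERSE-II, ATTGG and CCACG with 1 base between them, shares its CCACG with ERSE and was found in HERPUD1 and in 0.0541% of promoters.
HERPUD1 ERSE-II, chr16:56932016-56932045, plus strand: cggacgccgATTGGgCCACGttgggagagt
The core of the element bound by ATF4 with C/EBP factors, TGATGNAA, was found in CHAC1 and HERPUD1 as its reverse complement and in 3.62% of promoters.
CHAC1 C/EBP-ATF element, chr15:40953251-40953280, plus strand: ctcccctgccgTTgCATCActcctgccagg
HERPUD1 C/EBP-ATF element, chr16:56931955-56931984, plus strand: gacgcggcgggTTgCATCAgcccgtgccca
The core of the unfolded protein response element, TGACGTGG, was in none of the 10 windows and in 0.729% of promoters. ATF4, ATF5, DDIT3, TRIB3, DDIT4 and PPP1R15A held no match to these letters in this window. A match is a run of letters and was not tested as a binding site.

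The 10 genes spanned a wide range of level in the control cells. By FPKM, which is scaled to gene length, the order of the NC means was DDIT4 (370.5), ATF4 (131.7), HSPA5 (103.4), PPP1R15A (19.5), TRIB3 (16.3), XBP1 (15.8), DDIT3 (13.4), HERPUD1 (9.18), ATF5 (5.68) and CHAC1 (3.29). TRIB3 and XBP1 were the neighbours in this order whose ranges over the 3 NC libraries overlapped. DDIT4, an inhibitor of mTORC1 signalling, stood above 99.5% of protein-coding genes in NC, and CHAC1 above 55.6%. On the log2 CPM scale (counts scaled for depth with TMM factors, prior count 2) the distance from the lowest to the highest NC library was at most 0.23, reached by CHAC1 and DDIT3. That distance had a median of 0.17 over all genes tested, and 37.9% of genes exceeded the value of CHAC1.

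**Figure D1:**
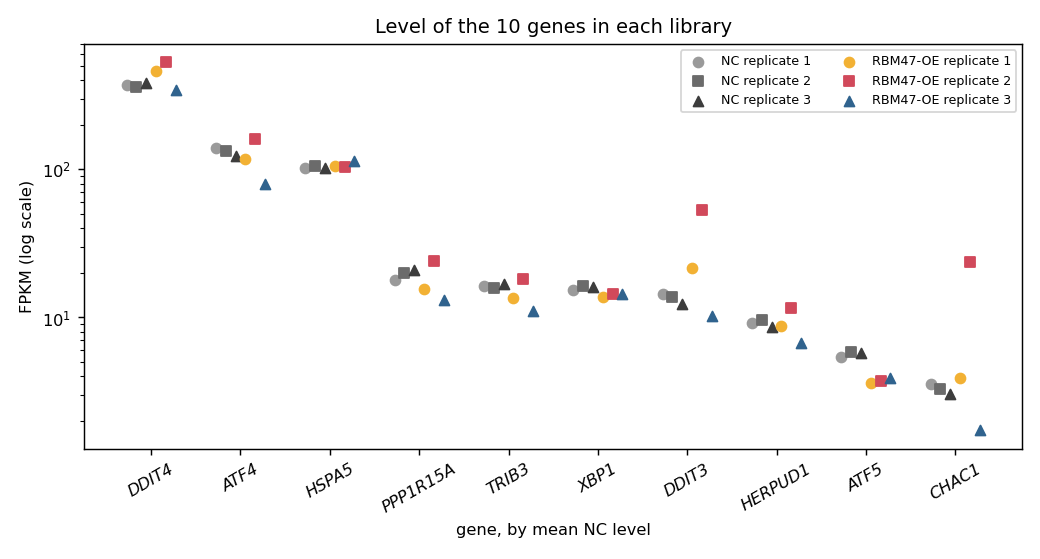
FPKM of the 10 genes (log axis) in each of the 6 libraries, with genes ordered by their mean in NC and 1 point per library. CHAC1 and DDIT3 reach 23.7 and 53.1 FPKM in RBM47-OE replicate 2 and lie below the NC libraries in replicate 3, whereas the RBM47-OE points of ATF5 and XBP1 lie together under those of NC.

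The RBM47-OE libraries did not lie close together, and they differed in a shared order. For 7 of the 10 genes (ATF4, DDIT3, CHAC1, TRIB3, HERPUD1, DDIT4 and PPP1R15A) RBM47-OE replicate 2 was the highest and replicate 3 the lowest of all 6 libraries, with replicate 1 between them. Of all 16260 genes tested, 12.7% had the RBM47-OE libraries in this order. ATF5, XBP1 and HSPA5 did not follow it. RBM47 itself differed by 0.08 on the log2 CPM scale among the RBM47-OE libraries. Over all genes tested, the median span of these libraries was 0.28. The median of replicate 2 minus replicate 3 was -0.01, which follows from the TMM scaling, since it keeps the typical difference between libraries small. What set the libraries of this group apart was not tested, since each replicate is 1 library.

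**Figure D2:**
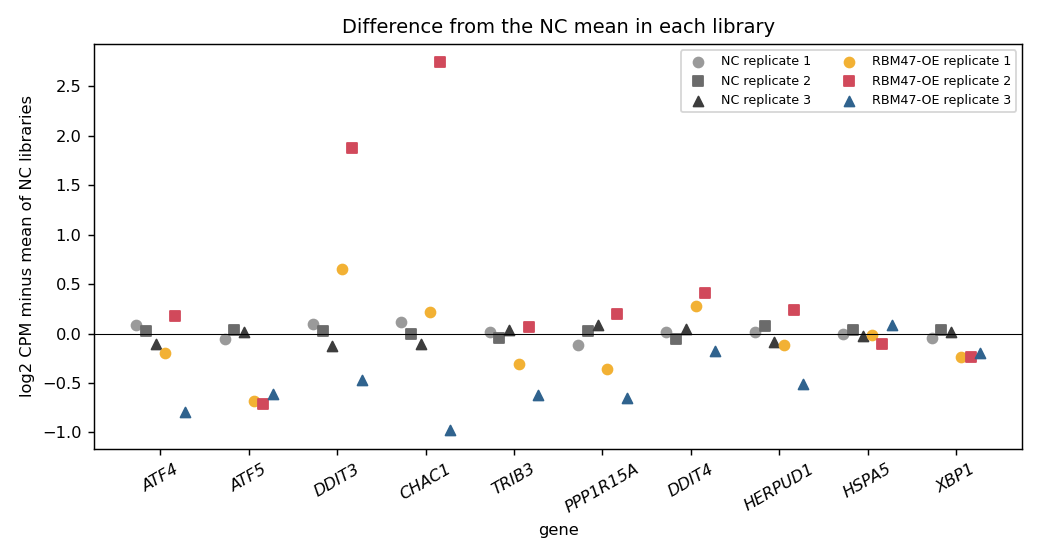
Log2 CPM of each gene in each library minus the mean of the 3 NC libraries, 1 point per library. In 7 genes the RBM47-OE points spread with replicate 2 on top and replicate 3 at the bottom, up to 2.74 and down to -0.98 for CHAC1, while those of ATF5 and XBP1 stay together below 0.

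Among the transcription factors, ATF4 (ENSG00000128272, chr22:39519695-39522683), the central factor of the integrated stress response, was at 138.5, 133.9 and 122.6 FPKM in the 3 NC libraries, against 117.6, 160.4 and 79.3 FPKM in RBM47-OE replicates 1, 2 and 3. The groups overlapped, with RBM47-OE on both sides of NC. NC averaged 131.7 ± 8.20 FPKM (SD, n = 3), RBM47-OE averaged 119.1 ± 40.6 FPKM (SD, n = 3), and the fitted log2 fold change of RBM47-OE over NC was -0.22 (standard error 0.13). Without RBM47-OE replicate 2 it was -0.47 (standard error 0.12), and without replicate 3 it was 0.000254 (standard error 0.091). DESeq2 on the filtered genes gave a larger standard error of 0.28 with all 6 libraries, for a log2 fold change of -0.22.

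ATF5 (ENSG00000169136, chr19:49928702-49933935), a factor of the same bZIP family that also serves the mitochondrial stress response, was lower in every RBM47-OE library. The NC libraries were at 5.45, 5.83 and 5.76 FPKM and the RBM47-OE libraries at 3.62, 3.72 and 3.88 FPKM, without overlap. The log2 fold change was -0.68 (standard error 0.10) and lay between -0.71 and -0.66 with any 1 library left out. Unlike the 7 genes above, the RBM47-OE libraries differed by 0.10 on the log2 CPM scale, a distance that 91.3% of tested genes exceeded. The gene body overlaps NUP62 and IL4I1 on the other strand, and the sources used here do not say whether strand was used in counting. ENSG00000269179, also on the other strand, overlaps 5234 bases of ATF5 and is not among the genes of the count table.

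DDIT3 (ENSG00000175197, chr12:57516588-57521737), which encodes CHOP, a factor that promotes cell death under lasting ER stress, had 14.3, 13.7 and 12.3 FPKM in NC. In RBM47-OE it had 21.6, 53.1 and 10.2 FPKM. Replicates 1 and 2 were thus 1.61 and 3.95 times the NC mean, and replicate 3 was 0.757 times that mean and below every NC library. The log2 fold change of 0.99 (standard error 0.28) became 0.20 (standard error 0.19) without RBM47-OE replicate 2 and 1.39 (standard error 0.19) without replicate 3. DESeq2 on the filtered genes also gave 0.99 with all 6 libraries, with a larger standard error of 0.64. DDIT3 shares 982 bases with the end of MARS1 on the other strand, and MARS1 was lower in all 3 RBM47-OE libraries, by 0.47 to 0.52 on the log2 CPM scale. DDIT3 also shares 1028 bases with MBD6 on the other strand. On its own strand it shares 2769 bases with ENSG00000285133, which is not among the genes of the count table.

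CHAC1 (ENSG00000128965, chr15:40952962-40956512), an enzyme that degrades glutathione and a sensitive target of ATF4, had the most uneven RBM47-OE libraries of all genes tested. It was counted 223, 268 and 208 times in NC and 300, 1686 and 114 times in RBM47-OE. In FPKM it was at 3.55, 3.27 and 3.04 in NC and at 3.92, 23.7 and 1.73 in RBM47-OE. RBM47-OE replicate 2 was 7.22 times the NC mean, replicate 1 was 1.19 times and replicate 3 was 0.526 times. The 3.72 log2 units between replicates 2 and 3 were the widest spread within RBM47-OE among all 16260 genes tested. The log2 fold change of 1.49 (standard error 0.46) rested on replicate 2. Without that library it was -0.25 (standard error 0.22), on the other side of 0. DESeq2 on the filtered genes gave CHAC1 a larger standard error of 1.02 with all 6 libraries, for a log2 fold change of 1.48.

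The other targets of ATF4 and CHOP showed the same order over a narrower range. TRIB3, a pseudokinase that dampens ATF4 and AKT, was at 16.4, 15.8 and 16.7 FPKM with the control plasmid, against 13.5, 18.3 and 11.1 with RBM47. PPP1R15A (GADD34), the phosphatase subunit that reverses eIF2 phosphorylation, was at 17.9, 19.9 and 20.8 FPKM with the control plasmid, against 15.6, 23.96 and 13.02 with RBM47. DDIT4 was at 371.5, 357.8 and 382.2 FPKM with the control plasmid, against 461.8, 528.0 and 343.0 with RBM47. In each of the 3 genes, replicate 2 lay above and replicate 3 below all NC libraries. Replicate 1 was below NC in TRIB3 and PPP1R15A and above NC in DDIT4. The log2 fold changes were -0.26 (standard error 0.11) for TRIB3, -0.23 (standard error 0.12) for PPP1R15A and 0.19 (standard error 0.099) for DDIT4. Without RBM47-OE replicate 2 they were -0.45, -0.50 and 0.07, and without replicate 3 they were -0.11, -0.06 and 0.34. With no library left out, DESeq2 on the filtered genes gave TRIB3, PPP1R15A and DDIT4 standard errors of 0.19, 0.25 and 0.11.

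The genes of the ER itself differed from each other. HSPA5 (chr9:125234853-125241382), the main ER chaperone and the usual marker of the unfolded protein response, was at 102.5, 106.0 and 101.9 FPKM in NC, against 104.9, 103.1 and 114.8 in RBM47-OE. The groups overlapped, replicate 3 was the highest library rather than the lowest, and the log2 fold change was -0.01 (standard error 0.073). The sign turned with the scaling, to 0.05 when library totals were used and to 0.06 for limma on log2(FPKM + 1). XBP1 (chr22:28794555-28800597) was at 15.2, 16.2 and 15.9 FPKM in NC, against 13.8, 14.4 and 14.4 in RBM47-OE. All RBM47-OE libraries were below all NC libraries and within 0.04 of each other on the log2 CPM scale, and the log2 fold change was -0.23 (standard error 0.074). XBP1 was not called with library totals as the scaling, with limma in any of its 3 forms, at an adjusted p-value under 0.01, or without NC replicate 2 or NC replicate 3. HERPUD1 (chr16:56932142-56944864), a membrane protein of ER-associated degradation whose window holds both an ERSE-II and a C/EBP-ATF match, was at 9.20, 9.66 and 8.67 FPKM in NC, against 8.72, 11.6 and 6.75 in RBM47-OE. It followed the order of the ATF4 targets and not that of HSPA5, with a log2 fold change of -0.10 (standard error 0.11). With DESeq2 on the filtered genes the standard error of HERPUD1 was 0.21.

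With edgeR's quasi-likelihood test and adjusted p-values below 0.05, 2 of the 10 genes were called higher (DDIT3 and CHAC1) and 2 lower (ATF5 and XBP1), where 35.9% of all genes tested were called, 19.1% as higher and 16.9% as lower. Higher calls made up 53.1% of all calls, and 66.2% with library totals, 64.4% with limma on log2(FPKM + 1) and 41.1% with the GC offset described below. ATF5 and XBP1 were the 2 genes whose groups did not overlap, against 46.5% of all genes tested. DDIT3, CHAC1 and ATF5 also passed the study's cutoffs (unadjusted p below 0.01, fold change above 1.5) with edgeR's p-values, against 2.38% of all genes. The study applied these cutoffs to DESeq2, with which 0 of the 10 genes were higher at an unadjusted p below 0.05. These values were partly the basis of the choice of genes, and nothing is read from them. Without RBM47-OE replicate 2, 0 of the 10 were called higher and 6 lower (ATF4, ATF5, TRIB3, XBP1, HERPUD1 and PPP1R15A). Of all genes, 26.1% were then called, 14.2% as higher and 11.9% as lower. Replicate 2 was the highest library for 7 of the 10 genes, so leaving it out lowers their RBM47-OE means. That fit had no GC offset. At an unadjusted p below 0.05 the edgeR count of higher genes without this library was also 0, and no other tool was run without it. Without RBM47-OE replicate 3, 3 were called higher (DDIT3, CHAC1 and DDIT4) and 2 lower, where 27.9% of all genes were called, 14.5% as higher and 13.4% as lower. With all 6 libraries, DESeq2 and limma called neither DDIT3 nor CHAC1.

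**Figure D3:**
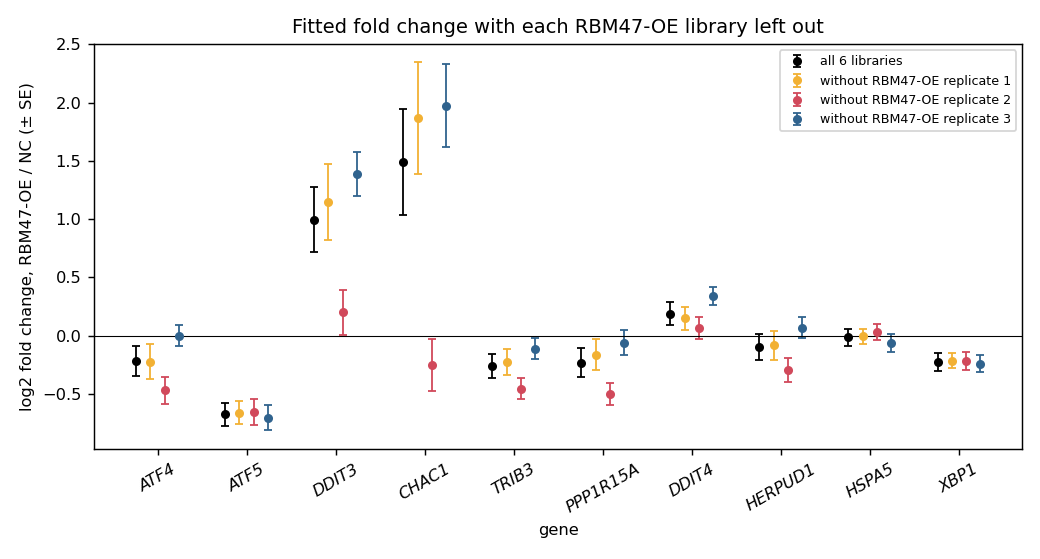
Fitted log2 fold change of RBM47-OE over NC with its standard error for all 6 libraries and with each RBM47-OE library left out. Leaving out replicate 2 takes CHAC1 from 1.49 to -0.25 and DDIT3 from 0.99 to 0.20, while ATF5 stays between -0.71 and -0.66.

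Gene levels in RBM47-OE also followed the GC content of exons. Across the tested genes, which are not independent replicates, Spearman's rho of the log2 difference from NC with exonic GC content was -0.41, -0.59 and -0.67 in RBM47-OE replicates 1, 2 and 3. Between RBM47-OE replicates 2 and 3 the same rho was 0.14. For NC replicates 1, 2 and 3, each against the other NC libraries, it was -0.16, 0.13 and 0.04. The median GC content was 57.2% for the 10 genes and 49.0% for all tested genes, and CHAC1 was the richest of the 10 at 62.7%. With the tested genes split into 10 equal bins by GC content, the richest bin, which holds CHAC1, had a median log2 fold change of -0.23. ATF5, at 58.4% GC, lay in a bin with a median of -0.22, and its log2 fold change was -0.49 (standard error 0.090) in a second fit with an offset for the GC trend of each library (the GC offset), which takes out any difference that follows GC content. ATF4, TRIB3 and PPP1R15A, at 57.0% to 59.6% GC, had values of -0.26 to -0.22 without the offset, near the medians of -0.22 and -0.20 of their bins, and of -0.06 to -0.04 with it. DDIT4, at 58.7% GC, was at 0.19 without the offset, above the median of -0.22 of its bin, and at 0.38 with it. For the low-GC genes the offset acted the other way. XBP1, HERPUD1 and HSPA5 lay in bins with medians of 0.12, 0.22 and 0.12. With the offset XBP1 moved from -0.23 to -0.30, HERPUD1 from -0.10 to -0.30 and HSPA5 from -0.01 to -0.15. In this fit DDIT3, CHAC1 and DDIT4 were called higher and ATF5 and XBP1 lower, where 14.5% of all genes were called, 5.97% as higher and 8.57% as lower.

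**Figure D4:**
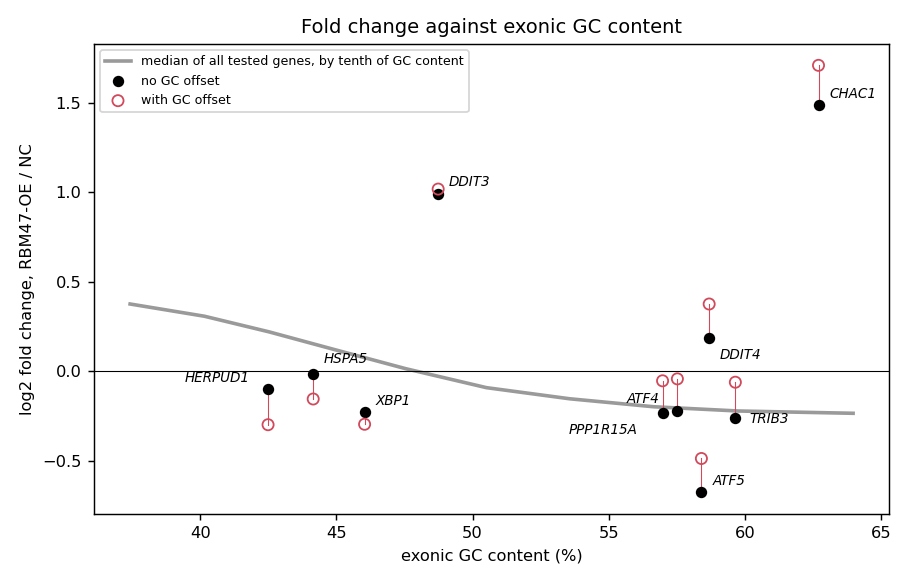
Log2 fold change of the 10 genes against exonic GC content in percent, without (filled) and with (open) the GC offset. The grey line gives the median of all tested genes in each of 10 bins of GC content, from 0.38 to -0.23. ATF4, PPP1R15A and TRIB3 lie near it, while ATF5, XBP1, HERPUD1 and HSPA5 lie below and CHAC1, DDIT3 and DDIT4 above.

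The other genes of these pathways were taken from 5 lists with the 10 genes left out, and each gene was tested in the fit across all genes (edgeR's quasi-likelihood test, Benjamini-Hochberg adjustment). Of 22 genes for sensors and the eIF2 branch, 7 were higher and 4 lower, with a median log2 fold change of 0.03 against 3.96e-05 for all genes tested. Of all genes tested, 19.1% were called higher and 16.9% lower, and with the GC offset 5.97% and 8.57%. ATF6 rose by 0.44 (standard error 0.078, edgeR adjusted p = 1.9e-04) and EIF2AK3 by 0.35 (standard error 0.11, edgeR adjusted p = 0.011). EIF2AK4 (GCN2), the kinase that senses uncharged tRNA, rose by 0.28 (edgeR adjusted p = 0.0030), and OMA1, a mitochondrial protease that signals to eIF2 kinases, by 0.48 (edgeR adjusted p = 0.0037). ERN1 was at 0.02 (standard error 0.090, edgeR adjusted p = 0.86). EIF2B4 and EIF2B5, subunits of the exchange factor that phosphorylated eIF2 blocks, fell by 0.42 and 0.30 (edgeR adjusted p = 4.4e-04 and 0.0035), and TRAF2, an adaptor of IRE1, fell by 0.44 (edgeR adjusted p = 4.3e-04). With the GC offset 1 gene of this list, ATF6, was higher and 5 were lower, among them TRAF2, EIF2B4 and EIF2B5. ATF6 was then at 0.17 (edgeR adjusted p = 0.047), EIF2AK3 at 0.08 (edgeR adjusted p = 0.61), EIF2AK4 at 0.13 (edgeR adjusted p = 0.11) and OMA1 at 0.26 (edgeR adjusted p = 0.11).

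Of 58 other ATF4 targets, 55 were found and 51 tested. Among these 51, 12 were higher and 16 lower (19.1% and 16.9% of all genes), with a median log2 fold change of -0.10. ASNS, asparagine synthetase and a classic ATF4 target, was at 21.8, 22.2 and 19.9 FPKM in NC, against 32.2, 36.9 and 40.7 in RBM47-OE. It rose by 0.71 (standard error 0.079, edgeR adjusted p = 5.0e-06), and here replicate 3 was the highest library, whereas for CHAC1 it was the lowest. KLHL24 rose by 0.64 (edgeR adjusted p = 2.9e-05) and LARS1, the cytosolic leucyl-tRNA synthetase, by 0.52 (edgeR adjusted p = 1.1e-04). YARS1 and MARS1, the tyrosyl- and methionyl-tRNA synthetases, fell by 0.52 and 0.49 (edgeR adjusted p = 3.8e-05 and 4.1e-05). SLC7A5, the large neutral amino acid transporter, fell by 0.49 (edgeR adjusted p = 1.3e-04). With the GC offset 7 of the list were higher, with ASNS at 0.53 (edgeR adjusted p = 2.4e-05), and 11 were lower (5.97% and 8.57% of all genes).

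SESN2 and ATF3 of this list had their RBM47-OE libraries in the order of CHAC1. SESN2, a stress protein that restrains mTORC1, was at 7.35 to 7.92 FPKM in NC and at 7.76, 15.03 and 4.83 in RBM47-OE (log2 fold change 0.18, standard error 0.20, edgeR adjusted p = 0.52). ATF3, a stress-induced bZIP factor, was at 8.83 to 9.87 FPKM in NC and at 8.05, 15.8 and 5.14 in RBM47-OE (log2 fold change -0.05, standard error 0.19, edgeR adjusted p = 0.87). SLC7A11, the cystine transporter, was at 0.29 (standard error 0.14, edgeR adjusted p = 0.12), and did not follow this order. Its RBM47-OE replicates 1, 2 and 3 lay at -0.16, 0.79 and 0.07 from the NC mean on the log2 CPM scale, with replicate 1 the lowest. DESeq2 on the filtered genes gave SESN2, ATF3 and SLC7A11 larger standard errors of 0.44, 0.45 and 0.30. Of the 51 genes, 37 were higher in replicate 2 than in replicate 3 (72.5%, against 47.7% of all genes tested), with a median difference of 0.21 log2 units. Without RBM47-OE replicate 2, 8 of the list were higher and 22 lower, where 14.2% of all genes were called higher and 11.9% lower.

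Of 30 ER chaperones and ATF6 targets, 12 were higher and 5 lower (19.1% and 16.9% of all genes), with a median log2 fold change of 0.08. HSP90B1 (GRP94), the ER form of HSP90, rose by 0.38 (standard error 0.078, edgeR adjusted p = 6.2e-04). DNAJC10, NUCB2 and ERO1B rose by 0.57, 0.56 and 0.54 (edgeR adjusted p = 1.0e-04, 4.9e-05 and 0.0059). CALR, a lectin chaperone, fell by 0.26 (edgeR adjusted p = 0.0098), SDF2L1 fell by 0.47 (edgeR adjusted p = 2.7e-04), and ERP29 and P4HB, which belong to the protein disulfide isomerase family, fell by 0.28 and 0.27 (edgeR adjusted p = 0.0039 and 0.010). PDIA4 was at -0.12 (edgeR adjusted p = 0.21). The GC offset left 2 higher, NUCB2 among them, and 2 lower, SDF2L1 and ERP29 (5.97% and 8.57% of all genes). HSP90B1 was then at 0.11 (edgeR adjusted p = 0.24). Of the 30, 4 were higher in RBM47-OE replicate 2 than in replicate 3 (13.3%), and 0 had the order of CHAC1.

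Of 52 tested genes for ER-associated degradation, translocation and other XBP1 targets, 16 were higher and 12 lower (19.1% and 16.9% of all genes). The median log2 fold change was 0.02. SEL1L, the adaptor of the HRD1 ligase, rose by 0.44 (standard error 0.075, edgeR adjusted p = 1.4e-04), and DNAJB9, an ER co-chaperone and XBP1 target, by 0.41 (standard error 0.11, edgeR adjusted p = 0.0063). UBXN4, ARFGAP3 and EDEM3 rose by 0.57, 0.57 and 0.46 (edgeR adjusted p = 2.7e-05, 5.4e-05 and 0.0011). EDEM1 was at 0.12 (edgeR adjusted p = 0.33) and SYVN1, the HRD1 ligase itself, at -0.13 (edgeR adjusted p = 0.21). AUP1, SSR4 and WFS1 fell by 0.38, 0.33 and 0.32 (edgeR adjusted p = 4.2e-04, 0.0014 and 0.0028). The GC offset left UBXN4 and ARFGAP3 as the 2 higher genes and 12 lower, AUP1 among them (5.97% and 8.57% of all genes). SEL1L and DNAJB9 were then at 0.13 and 0.08 (edgeR adjusted p = 0.14 and 0.72).

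Of 23 genes of the mitochondrial unfolded protein response, with which ATF5 is linked, 6 were higher and 6 lower (19.1% and 16.9% of all genes). The median log2 fold change was -0.08. GRPEL2, YME1L1 and CLPX rose by 0.64, 0.50 and 0.43 (edgeR adjusted p = 2.3e-04, 9.7e-05 and 1.1e-04), and the chaperonin HSPD1 rose by 0.31 (edgeR adjusted p = 0.0047). Its partner HSPE1 was at -0.08 (edgeR adjusted p = 0.50). The mitochondrial chaperone TRAP1, the heat shock factor HSF1 and the proteases CLPP and LONP1 fell by 0.38, 0.29, 0.28 and 0.21 (edgeR adjusted p = 4.9e-04, 0.0026, 0.0051 and 0.024). With the GC offset GRPEL2, YME1L1 and CLPX were the 3 higher genes and 4 were lower, TRAP1 among them (5.97% and 8.57% of all genes). HSPD1 was then at 0.10 (edgeR adjusted p = 0.36) and LONP1 at 0.01 (edgeR adjusted p = 0.96).

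**Figure D5:**
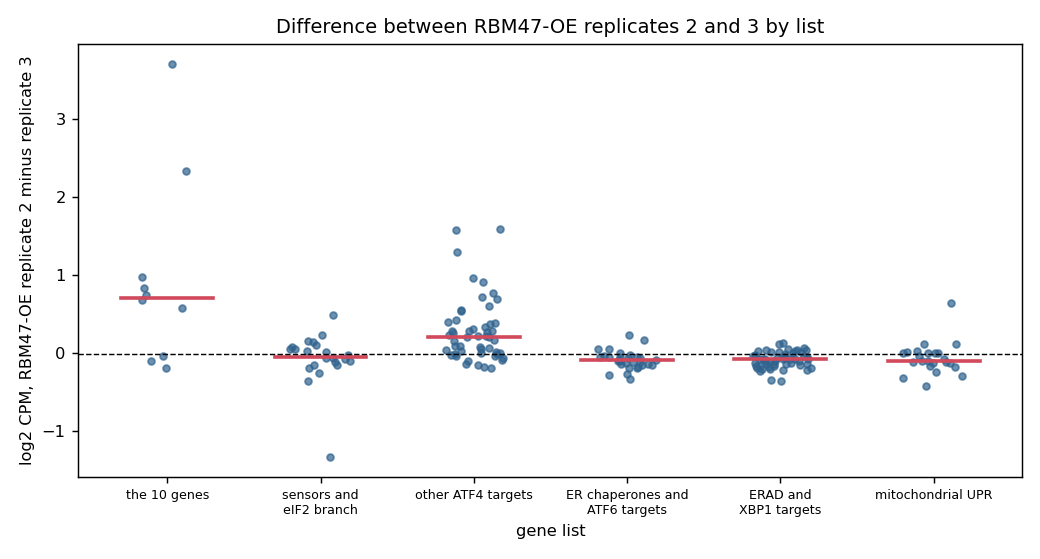
Log2 CPM in RBM47-OE replicate 2 minus replicate 3, 1 point per tested gene, for the 10 genes and the 5 lists, with red bars at the medians and a dashed line at the median of all genes tested. The medians are 0.71 for the 10 genes and 0.21 for the other ATF4 targets, and between -0.10 and -0.05 for the other lists.

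Paralogs of 5 of the 10 genes spanned 0.08 to 0.51 log2 CPM among the RBM47-OE libraries. CHAC2, a second glutathione-degrading enzyme, rose by 0.37 (standard error 0.13, edgeR adjusted p = 0.034), with RBM47-OE replicates 1, 2 and 3 at 0.22, 0.36 and 0.51 above the NC mean on the log2 CPM scale, and was at 0.0036 with the GC offset (edgeR adjusted p = 0.99). DDIT4L rose by 0.35 (edgeR adjusted p = 0.011; with the GC offset 0.20, edgeR adjusted p = 0.17). PPP1R15B, the constitutive partner of PPP1R15A in reversing eIF2 phosphorylation, had the widest span of them, with RBM47-OE replicate 2 at 0.51 and replicates 1 and 3 at -0.0012 and 0.02 from the NC mean, and its log2 fold change was 0.20 (edgeR adjusted p = 0.11). TRIB1 was at -0.11 (edgeR adjusted p = 0.21), TRIB2 at 0.15 (edgeR adjusted p = 0.20, and with the GC offset 0.23, edgeR adjusted p = 0.0498) and HERPUD2 at 0.16 (edgeR adjusted p = 0.20).

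The genes most like ATF5 and CHAC1 were sought among 14005 genes with a mean log2 CPM of at least 0, by the root mean square difference of log2 CPM over the 6 libraries after centring each gene. For CHAC1 they were DDIT3 (0.45), TSC22D3 (0.64) and SESN2 (0.72). For ATF5 they were SNAPC4 (0.04), RRP9 (0.05) and PPRC1 (0.06). This measure grows with a gene's own spread, so the distances of CHAC1 and ATF5 are not comparable with each other. DDIT3 is another of the 10 genes and SESN2 is in the list of ATF4 targets, whereas the 3 genes nearest to ATF5 are in none of the lists. Ranked by the difference between RBM47-OE replicates 2 and 3, CHAC1 and DDIT3 were the first and second of 14006 genes, with ATF4 at rank 63, PPP1R15A at 105, HERPUD1 at 161, TRIB3 at 207 and DDIT4 at 334. XBP1, ATF5 and HSPA5 were at ranks 7860, 9699 and 11939. The rank of CHAC1 follows partly from its choice for a higher level, which rested on replicate 2.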

How the data were processed

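Poly(A) RNA of 3 NC and 3 RBM47-OE libraries was measured. Reads had been trimmed (FASTX-Toolkit) and mapped by the authors with HISAT2 (GRCh38). They deposited counts of uniquely mapped reads per gene, not normalized, and FPKM values scaled by the authors to gene length and mapped fragments. The counter, annotation release and use of strand are not given in the sources used here.

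Counts were tested with edgeR 4.0.16 (filterByExpr, minimum count 10, TMM, quasi-likelihood test, condition as the only term, Benjamini-Hochberg adjustment over 16260 genes). Standard errors were derived from the log2 fold change and its F statistic (size over root of F). Exonic GC content and coordinates came from GENCODE 44, matched by gene identifier for 16233 tested genes, and the GC offset was a loess curve (span 0.3) per library. Promoters came from RefSeq. Alternatives used DESeq2 1.42.0, limma 3.58.1 on log2(FPKM + 1) or log2(FPKM + 0.1), other scalings, filters and thresholds, the replicate number as a block, and each library left out. Tests were checked on simulated counts with the same dispersion for all genes, no GC trend and no outlying library. The check therefore does not cover calls that depend on these features.

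The 10 genes and the lists were chosen with earlier results of these data known. From each list the text names fixed anchor genes and up to 3 genes per direction, by size of change, that passed adjusted p 0.05, had groups without overlap and averaged 0 or more on the log2 CPM scale.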

Additional observations from a re-analysis of the deposited data

How the results depend on the processing

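Each library left out in turn gave 0 to 3 of the 10 genes called higher and 1 to 6 called lower (all libraries 2 and 2). The same ranges were 3 to 9 higher and 3 to 5 lower for sensors and the eIF2 branch, 8 to 15 and 11 to 22 for the other ATF4 targets, 8 to 12 and 1 to 9 for ER chaperones, 12 to 17 and 6 to 13 for ER-associated degradation, 4 to 7 and 2 to 7 for the mitochondrial list, and 2090 to 3864 and 1675 to 3508 for all genes. DESeq2, on the filtered or all genes, and limma in all 3 forms called 0 of the 10 genes higher, also 0 at an unadjusted p below 0.05, where edgeR called 2. Of all genes, DESeq2 called 18.8% and 10.3% higher on the filtered and on all genes, and limma called 4.99% to 16.6% higher. Lower calls among the 10 numbered 1 with library totals, limma, an adjusted p under 0.01 or the study's thresholds, and 5 with no filter on low counts. Of all genes, 11.6% were called lower with library totals, 3.21% to 9.09% with limma and 10.2% at an adjusted p under 0.01. With the study's thresholds it was 0.873%, and 8.7% with no filter. At an adjusted p under 0.01, 1 of the 10 was higher, against 12.5% of all genes.

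The replicate numbers in the labels are shared by both groups, but the deviations of same-numbered libraries correlated at -0.060, -0.015 and -0.016 over 16260 genes, so they are taken to share a number and no pairing. With the replicate number as a block, 2 of the 10 genes were called higher and 5 lower (ATF4, ATF5, TRIB3, XBP1 and PPP1R15A). Of all genes, 18.2% were then called higher and 15.4% lower. No library correlated best with its own number. The GC offset with and without the block gave 1043 and 971 higher and 1455 and 1393 lower genes in all. For sensors it gave 0 and 1 higher, for ER chaperones 3 and 2 higher and 2 and 2 lower, for ER-associated degradation 2 and 2 higher and for the mitochondrial list 3 and 3 higher. For the other ATF4 targets the offset without the block gave 7 higher.

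limma on log2(FPKM + 1) and log2(FPKM + 0.1) gave 1586 and 1599 lower genes in all, 10 and 10 among other ATF4 targets, 3 and 3 among ER chaperones, 6 and 6 for ER-associated degradation and 3 and 3 in the mitochondrial list. With no filter limma gave 1410 higher and 908 lower in all, 3 and 2 for sensors, 4 and 6 for other ATF4 targets, 0 lower ER chaperones, 2 lower for ER-associated degradation, and 3 and 1 for the mitochondrial list. Library totals gave 7 lower for ER-associated degradation. At an adjusted p under 0.01 there were 2039 higher and 1661 lower genes, 3 higher sensors, 3 lower ER chaperones, 6 lower for ER-associated degradation and 3 lower in the mitochondrial list. The study's thresholds, applied to edgeR's p-values, gave 245 and 142 genes, and 0 and 0 for sensors, ER chaperones and ER-associated degradation. They gave 2 and 0 for other ATF4 targets and 1 and 0 for the mitochondrial list.

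Log2 fold changes that changed sign with 1 library left out ranged from -0.25 to 1.98 for CHAC1, -0.34 to 0.48 for SESN2, -0.049 to 0.089 for ERN1, -0.57 to 0.25 for ATF3, -0.044 to 0.48 for SLC7A11, -0.16 to 0.0004 for HSPE1, -0.47 to 0.0003 for ATF4, -0.30 to 0.069 for HERPUD1 and -0.064 to 0.033 for HSPA5. CHAC1, SESN2, SLC7A11 and HSPE1 changed sign without RBM47-OE replicate 2, ERN1 without it (-0.049) or NC replicate 3 (-0.014), ATF3 without RBM47-OE replicate 1 (0.057) or 3, ATF4 and HERPUD1 without RBM47-OE replicate 3, and HSPA5 without RBM47-OE replicate 2 or NC replicate 2 (0.0012). HSPA5 was also at 0.047 with library totals and at 0.055, 0.056 and 0.055 with limma (pseudocount 1, pseudocount 0.1 and no filter). ATF3 was at 0.023 with library totals and 0.017 with the GC offset. With the GC offset, and with it and the block, SLC7A11 was at -0.093 and -0.13, PDIA4 at 0.014 and 0.013, SYVN1 at 0.055 and 0.055 and LONP1 at 0.0052 and 0.0051, and PPP1R15B was at -0.0076 with both. The causes were not tested. With 3 libraries a group, 1 library can decide a call, as replicate 2 did for CHAC1.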

Other observations

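Among the genes with the widest difference between RBM47-OE replicates 2 and 3, several are in none of the lists above, and they were picked after their values were seen. TSC22D3 (GILZ), a glucocorticoid-induced regulator, differed by 1.70 log2 CPM, next after CHAC1 (3.72) and DDIT3 (2.34). PIK3IP1, an inhibitor of PI3-kinase signalling, differed by 1.50, the potassium channel gene KCNF1 by 1.50 and the immediate early gene EGR1 by 1.24. JDP2, a bZIP repressor from the list of ATF4 targets, differed by 1.29. Of the 100 genes with the largest such difference among 14006, 3 were among the 10 genes, 5 were other ATF4 targets, and 0 came from the other 4 lists. These 100 are 0.714% of the genes ranked. CHAC1 was chosen for a higher level that rested on replicate 2, so its place among them follows partly from that choice.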
